A study of Mus musculus with 48 samples.

Results

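Type I interferon response genes were followed here through 9 members: Ifit1, Ifit3, Ifi27l2a, Irf7, Oasl2, Bst2, Usp18, Rtp4 and Isg15. They were chosen with earlier results of these data known, as were the gene lists used below. Matched by gene symbol to the 48709 genes in the count files, all 9 had an entry. RNA-seq gene counts were available from 48 libraries of 46 male C57BL/6J mice in 8 groups, prepared from whole tissue. Formin 2 (Fmn2), an actin nucleator, is deleted in the Fmn2-/- mice, and the APP mice carry APPPS1-21, a pair of transgenes for mutant amyloid precursor protein and presenilin 1 under the neuronal Thy1 promoter. Dentate gyrus was labelled for Fmn2+/+ mice (n = 5) and Fmn2-/- mice (n = 5) of 3 months, and for Fmn2+/+ mice (n = 3) and Fmn2-/- mice (n = 5) of 8 months. A cross of both lines gave 7 mice labelled FMN2-/-_APP and 9 mice labelled FMN2 +/+ APP, both of 3 months and both carrying APPPS1-21 by label. A further 6 APP mice and 6 wild-type mice were labelled 4 months.

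Type I interferons are secreted proteins that bind a receptor of the subunits Ifnar1 and Ifnar2 and activate the kinases Jak1 and Tyk2. The signal ends in a complex with Irf9 on interferon-stimulated response elements in the promoters of target genes. In the brain, microglia are a main source of this response, and interferon-stimulated genes are known from microglia of aged and amyloid-bearing mice. Among the 9 genes, Irf7 encodes a transcription factor that drives interferon transcription. Ifit1 and Ifit3 bind viral RNA, Oasl2 belongs to the oligoadenylate synthetase family, and Bst2 (tetherin) holds budding virus particles at the cell surface. Isg15 is a ubiquitin-like modifier, and Usp18 removes it from proteins and dampens receptor signalling. Rtp4 is a chaperone for membrane receptors, and Ifi27l2a encodes a small hydrophobic protein.

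Promoter sequences are shown because response elements are the feature through which these genes answer interferon. RefSeq entries (GRCm38.p6) matched 6 of the 9 genes. The 250 bases before the start were searched for GAAANNGAAA and its opposite strand TTTCNNTTTC, the core of the response element. It was found in 4 of these 6 promoters and in 978 of all 32851 promoters (2.98%), and of 84 promoters of other interferon-induced genes 26 held it (31%). The 4 promoters are printed 5′ to 3′ on the strand of the gene, ending at the base before the start, with the matches in capitals.
Ifit1: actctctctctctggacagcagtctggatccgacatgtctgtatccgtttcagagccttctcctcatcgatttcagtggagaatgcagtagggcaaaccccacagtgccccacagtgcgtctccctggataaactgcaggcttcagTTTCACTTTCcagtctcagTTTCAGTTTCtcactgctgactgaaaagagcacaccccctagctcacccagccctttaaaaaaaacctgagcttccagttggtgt
Ifit3: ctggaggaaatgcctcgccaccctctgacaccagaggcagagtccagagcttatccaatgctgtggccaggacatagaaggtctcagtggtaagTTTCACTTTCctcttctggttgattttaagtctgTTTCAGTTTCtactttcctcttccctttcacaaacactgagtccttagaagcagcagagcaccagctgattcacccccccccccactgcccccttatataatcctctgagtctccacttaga
Bst2: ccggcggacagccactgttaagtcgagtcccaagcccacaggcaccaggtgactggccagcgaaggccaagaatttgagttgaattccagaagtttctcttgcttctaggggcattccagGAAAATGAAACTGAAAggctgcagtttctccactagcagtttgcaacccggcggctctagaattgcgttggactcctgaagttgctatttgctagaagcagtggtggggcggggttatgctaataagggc
Isg15: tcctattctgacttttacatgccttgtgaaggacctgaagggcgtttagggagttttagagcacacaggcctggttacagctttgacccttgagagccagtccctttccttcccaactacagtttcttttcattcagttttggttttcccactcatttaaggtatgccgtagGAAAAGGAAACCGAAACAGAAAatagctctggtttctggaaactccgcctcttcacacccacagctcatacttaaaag
The Ifit1 sequence is chr19:34640639-34640888 on the plus strand, with its nearer match from 85 to 76 bases before the start. Ifit3 is its neighbour, at chr19:34583279-34583528 on the plus strand, with matches from 156 to 147 and from 122 to 113 bases before the start. The Bst2 sequence (chr8:71537473-71537722, minus strand) holds 2 matches that overlap each other. The Isg15 sequence (chr4:156200819-156201068, minus strand) holds 3 overlapping matches, the nearest ending 57 bases before the start. Irf7 and Oasl2 had no match in this window. A match here is a description of letters and not a site of binding.

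Library depth ranged from 6818809 to 43921030 counts in genes per mouse, with a median of 24470686. Several features of the libraries bear on the comparisons. In the cross, Fmn2 was high in the mice labelled FMN2-/-_APP and low in those labelled FMN2 +/+ APP, the reverse of the labels, so both groups are named by label throughout. The 4-month libraries are labelled dentate gyrus, but their titles name PFC. They had low levels of the granule cell marker Prox1 (11.4 to 20.4 CPM) beside at least 181 CPM in every other library. Thy1, whose promoter drives the transgenes, was at 717 to 785 CPM in 4-month wild-type mice and at 1877 to 2413 CPM in 4-month APP mice. In 3 of the 16 cross mice Thy1 lay within the range of 3-month mice without the transgene (769.6 to 879.9 CPM). Choroid plexus transcripts were abundant in 3 libraries, with summed markers of 4150 CPM in replicate 4 of the 3-month Fmn2-/- mice and of 9242 and 6065 CPM in replicates 4 and 5 labelled FMN2 +/+ APP. Replicates 2 and 3 of the 8-month Fmn2-/- mice differed less than other mice of that group (chi-square per degree of freedom 1.62, next lowest pair 3.50), with 2.15 and 1.72 between 2 runs of 1 mouse.

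All 9 genes are protein-coding and were lowly expressed, so levels are given as CPM, the counts of a gene scaled to library size, with the counting error that small numbers carry. In mm10, Ifit1 (34640871 to 34650009) and Ifit3 (34583531 to 34588731) lie together on chromosome 19. Ifi27l2a is on chromosome 12 (103442167 to 103443680), Irf7 on chromosome 7 (141262706 to 141266481), Oasl2 on chromosome 5 (114896936 to 114912234) and Bst2 on chromosome 8 (71534255 to 71537456). Usp18 is on chromosome 6 (121245906 to 121270917), Rtp4 on chromosome 16 (23520291 to 23614222) and Isg15 on chromosome 4 (156199424 to 156200818). The library kit does not mark strand, and Irf7 shares 45 exon bases with Phrf1 and Usp18 124 with Gm44148 on the opposite strand, while Rtp4 shares 296 with Gm45338 on its own. The split of reads in these overlaps, and between Ifit1, Ifit3 and their near-identical family members, is uncertain.

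Normalised for exon length, Ifit3 had the highest mean of the 9 genes in 3-month Fmn2+/+ mice, at 2.34 ± 0.303 FPKM (SD, n = 5), and Usp18 the lowest, at 0.189 FPKM. Usp18 was the lowest of the 9 in every group. In the 4-month APP mice Bst2 ranked first per length, at 7.90 FPKM, followed by Ifi27l2a at 5.86 FPKM and Ifit3 at 5.49 FPKM. When groups were ordered by mean level, the 4-month APP mice stood first for each of the 9 genes. Of 63 neighbouring pairs of groups in these orders, 60 had overlapping ranges. The pairs without overlap were the 4-month APP and wild-type mice for Irf7 and Oasl2, and the Fmn2-/- and Fmn2+/+ mice of 3 months for Bst2. The plot of levels by mouse shows each value.

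**Figure D1:**
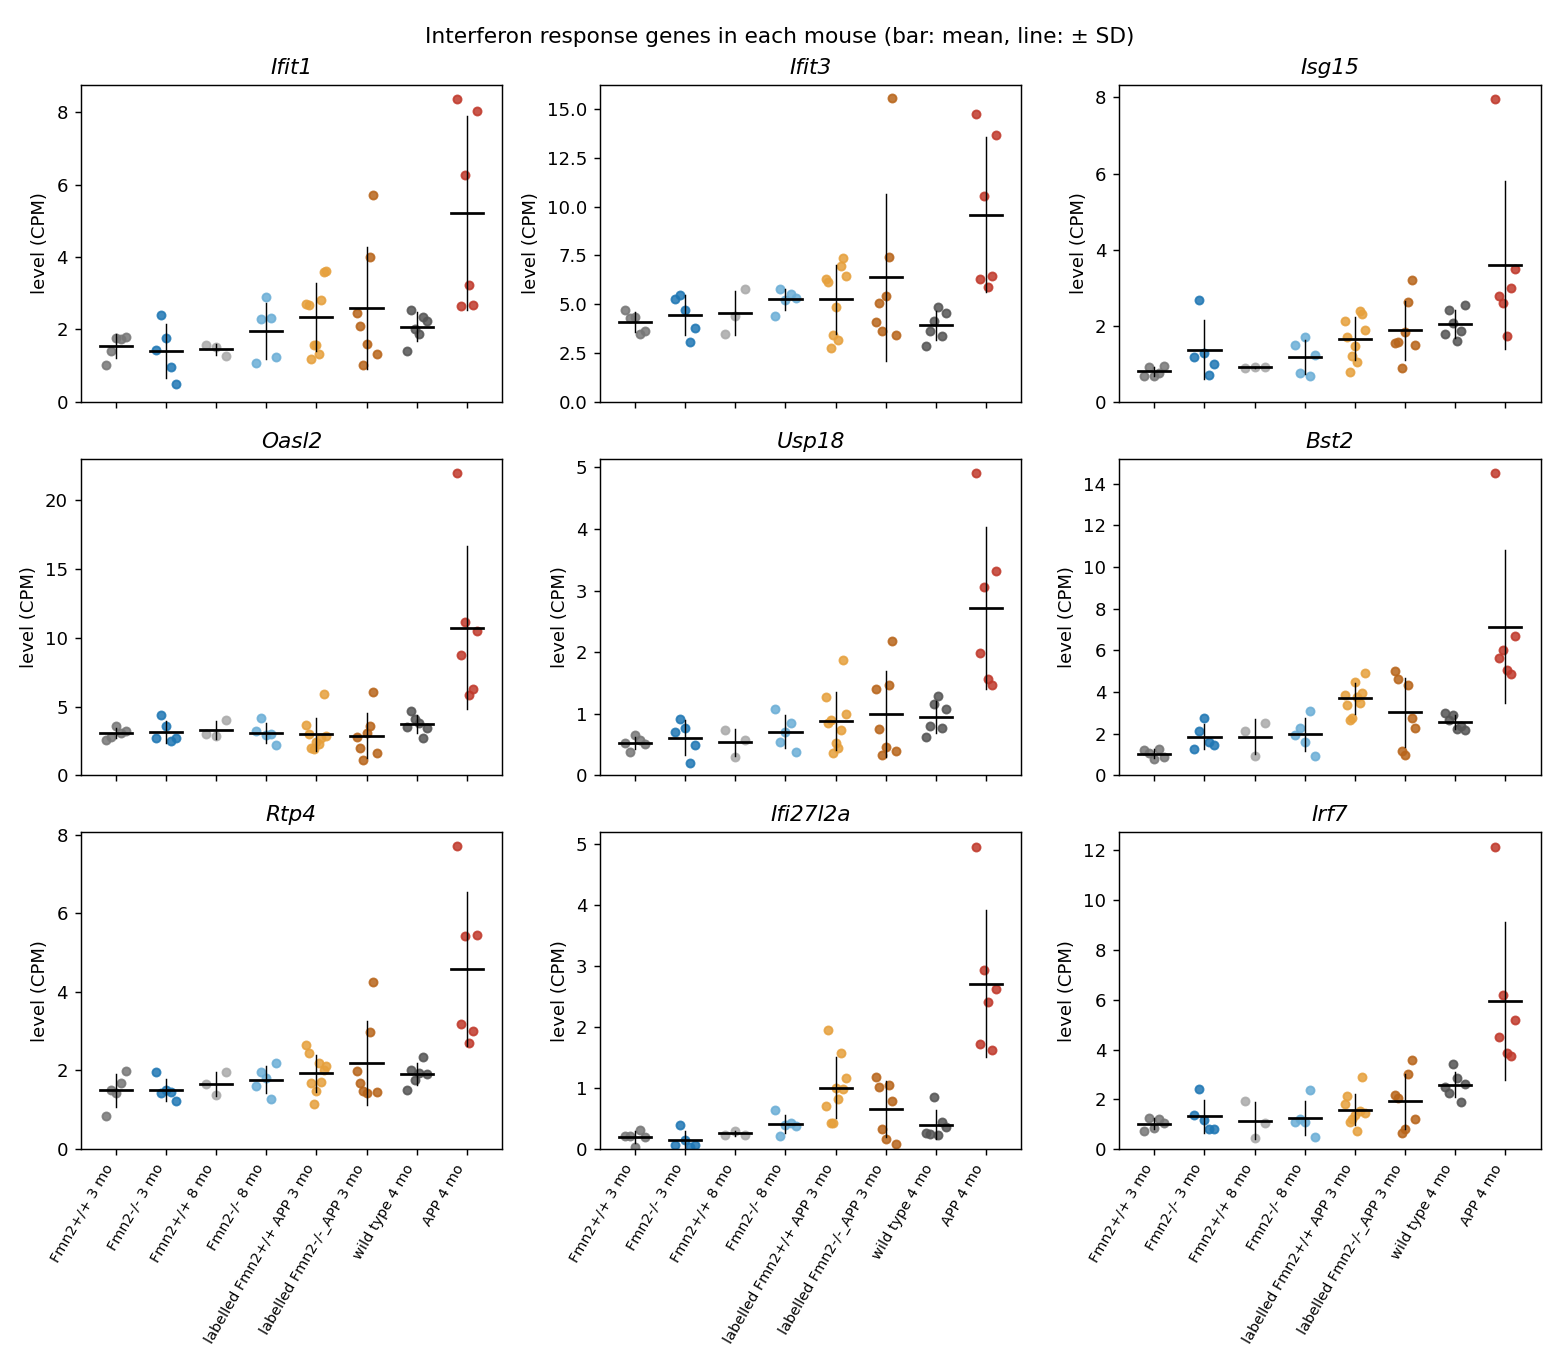
Level of each of the 9 genes in CPM (vertical axis, from 0) in each of the 46 mice by group (horizontal axis). Points are mice, bars the group mean and lines ± SD. The 4-month APP mice have the highest mean for every gene, with replicate 1 on top (Oasl2 22.0 CPM).

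The comparison of 4-month APP mice with wild-type mice asked how amyloid pathology alters expression. A broad increase of the interferon response genes was seen, with 8 of 9 differentially expressed (edgeR, adjusted p under 0.05 and absolute log2 fold change of at least 0.5) and all 8 higher in APP mice. Among all 16733 genes tested, 2.19% were called higher and 0.155% lower. Since the 9 genes were chosen with earlier results of these data known, their share beside this background is a description. The same 8 genes were higher in all 6 APP mice than in any of the 6 wild-type mice, as were 2.43% of all genes tested. The median log2 fold change of the 9 genes was 1.32, beside -0.0004 over all genes.

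The RNA-binding and effector genes rose by similar factors. Ifit1 lay between 2.66 and 8.36 CPM (median 4.75) in APP mice and between 1.41 and 2.53 CPM (median 2.12) in wild-type mice (log2 fold change 1.32, standard error 0.30, edgeR adjusted p = 0.0123). Ifit3 lay between 5.86 and 14.7 CPM (median 8.48) and between 2.87 and 4.87 CPM (median 3.88), a log2 fold change of 1.31 (standard error 0.23, edgeR adjusted p = 0.00174). For both genes replicates 1, 3 and 6 of the APP mice stood above replicates 2, 4 and 5. Oasl2 lay between 5.86 and 22.0 CPM (median 9.62) in APP mice and between 2.71 and 4.70 CPM (median 3.65) in wild-type mice. Its log2 fold change was 1.54 (standard error 0.27, edgeR adjusted p = 0.00186). Bst2 lay between 4.89 and 14.5 CPM (median 5.82) in APP mice and between 2.19 and 2.97 CPM (median 2.50) in wild-type mice. Bst2 thus rose 2.81-fold (standard error 0.25 on the log2 scale, edgeR adjusted p = 0.000913), and 5 of its 6 APP values lay within 4.89 to 6.70 CPM.

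Ifi27l2a showed the largest change of the 9 genes. It was at 1.63 to 4.95 CPM (median 2.52) in APP mice and at 0.235 to 0.851 CPM (median 0.309) in wild-type mice, a 6.92-fold difference (log2 fold change 2.79, standard error 0.34, edgeR adjusted p = 3.26e-05). These wild-type values rest on 4 to 14 counts per library. Rtp4, the receptor chaperone, lay between 2.70 and 7.72 CPM (median 4.31) against 1.51 to 2.35 CPM (median 1.93), a log2 fold change of 1.26 (standard error 0.24, edgeR adjusted p = 0.00335).

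The regulators Irf7 and Usp18 also increased. Irf7 lay between 3.74 and 12.1 CPM (median 4.84) in APP mice and between 1.90 and 3.41 CPM (median 2.57) in wild-type mice (log2 fold change 1.21, standard error 0.27, edgeR adjusted p = 0.0111). Usp18 lay between 1.47 and 4.91 CPM (median 2.52) and between 0.626 and 1.29 CPM (median 0.937), a log2 fold change of 1.53 (standard error 0.30, edgeR adjusted p = 0.00396). Its substrate Isg15 was the gene that did not pass, at 1.72 to 7.96 CPM (median 2.90) in APP mice and 1.58 to 2.54 CPM (median 1.96) in wild-type mice (log2 fold change 0.81, standard error 0.29, edgeR adjusted p = 0.173). For Isg15, 5 of 6 APP mice lay above every wild-type mouse and replicate 4 lay within their range.

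Replicate 1 of the APP mice had the highest level of all 9 genes. Without it the same 8 genes passed, and their log2 fold changes fell, for Oasl2 to 1.20, for Bst2 to 1.16, for Irf7 to 0.88 and for Ifit1 to 1.14 (edgeR adjusted p = 0.0345 for Ifit1). The APP and wild-type libraries were run on different lanes, so lane and genotype cannot be told apart. Microglia markers moved in the same direction. The summed level of 11 markers was 658 to 843 CPM in APP mice and 391 to 419 CPM in wild-type mice, all 11 were detected in every mouse and 10 of 11 were called higher. The plaque microglia marker Cst7 was at 30.1 to 41.3 CPM against 0 to 0.268 CPM. Replicate 1, the highest for the interferon response genes, had a microglia sum of 776 CPM, below the 843 CPM of replicate 3 and 828 CPM of replicate 5. Oligodendrocyte markers were lower. The sum of 6 markers was 1359 to 2080 CPM in APP mice and 2208 to 6205 CPM in wild-type mice. All 6 had negative log2 fold changes (median -0.79), with 1 called lower. Of 6 astrocyte markers 5 were positive and 1 was called higher, and of 6 neuron and 8 endothelial markers none was called. In whole tissue more cells of a type and more RNA per cell cannot be told apart. The part of microglia or of other cell types in these changes was not tested.

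**Figure D2:**
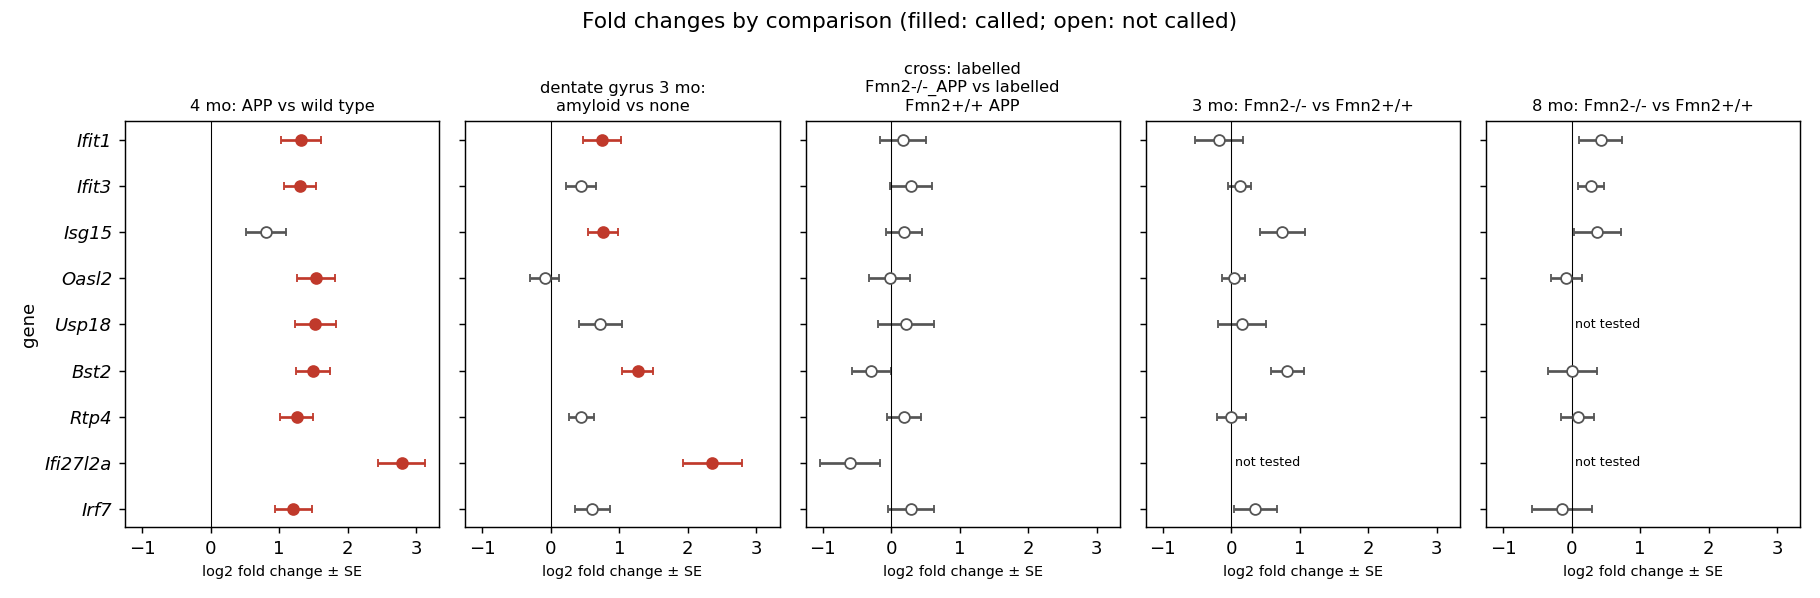
Log2 fold change of each gene ± standard error (horizontal axis) for 5 comparisons, 1 panel each, with genes on the vertical axis. Filled points passed the thresholds and open points did not. In the 4-month comparison 8 of 9 points are filled, while the Fmn2 comparisons hold open points alone.

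In the dentate gyrus of 3 months, the 16 cross mice were compared with the 10 mice without the transgene, as the mean of both cross groups minus the mean of the Fmn2+/+ and Fmn2-/- mice. In this comparison amyloid and experiment coincide and cannot be told apart, and 16.5% of 17599 genes were called (9.25% higher and 7.26% lower). Of the 9 genes, 4 were called, all of them higher in the cross: Ifi27l2a, Bst2, Ifit1 and Isg15. The median log2 fold change of the 9 genes was 0.73, beside 0.02 over all genes. The order of the genes differed from the 4-month comparison.

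Ifi27l2a was at 0.212, 0.216, 0.0311, 0.310 and 0.202 CPM in the Fmn2+/+ mice and at 0.0616, 0.395, 0.147, 0.0280 and 0.0727 CPM in the Fmn2-/- mice. In the cross it lay between 0.0806 and 1.19 CPM (median 0.785) in mice labelled FMN2-/-_APP and between 0.426 and 1.95 CPM (median 0.981) in mice labelled FMN2 +/+ APP. All 9 mice of the latter label, and 13 of 16 cross mice, lay above every mouse without the transgene. The log2 fold change was 2.36 (standard error 0.43, edgeR adjusted p = 6.73e-05).

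Bst2 was at 1.22, 1.08, 0.808, 1.24 and 0.874 CPM in the Fmn2+/+ mice and at 1.26, 2.13, 2.75, 1.59 and 1.48 CPM in the Fmn2-/- mice. It lay between 0.961 and 5.03 CPM (median 2.74) in mice labelled FMN2-/-_APP and between 2.66 and 4.90 CPM (median 3.77) in mice labelled FMN2 +/+ APP. In 11 of 16 cross mice it exceeded every mouse without the transgene, and replicates 3 and 4 labelled FMN2-/-_APP, at 1.18 and 0.961 CPM, did not rise above the Fmn2+/+ mice. The log2 fold change was 1.27 (standard error 0.22, edgeR adjusted p = 3.87e-05).

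Isg15 and Ifit1 changed less. Isg15 was at 0.687, 0.919, 0.684, 0.754 and 0.942 CPM in Fmn2+/+ mice, at 1.17, 2.68, 1.28, 0.699 and 0.994 CPM in Fmn2-/- mice, at 0.897 to 3.21 CPM (median 1.56) in mice labelled FMN2-/-_APP and at 0.783 to 2.38 CPM (median 1.70) in mice labelled FMN2 +/+ APP. Its groups overlapped, also without replicate 2 of the Fmn2-/- mice, which exceeded all but 1 cross mouse (log2 fold change 0.76, standard error 0.22, edgeR adjusted p = 0.00632). Ifit1 was at 1.01, 1.41, 1.77, 1.73 and 1.78 CPM in Fmn2+/+ mice, at 1.42, 2.41, 1.76, 0.950 and 0.485 CPM in Fmn2-/- mice, at 1.02 to 5.72 CPM (median 2.09) in mice labelled FMN2-/-_APP and at 1.17 to 3.62 CPM (median 2.68) in mice labelled FMN2 +/+ APP. In 8 of 16 cross mice Ifit1 exceeded every mouse without the transgene (log2 fold change 0.75, standard error 0.28, edgeR adjusted p = 0.0266). The Ifit1 call was lost without replicate 7 labelled FMN2-/-_APP (0.58, edgeR adjusted p = 0.0561), without replicate 1 of the Fmn2+/+ mice (0.70, edgeR adjusted p = 0.0502) and without replicate 6 of the Fmn2-/- mice (0.63, edgeR adjusted p = 0.0542). It was also lost without the 3 cross mice of low Thy1 (0.59, edgeR adjusted p = 0.0705), where the other 3 genes were still called.

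The other 5 genes did not pass in the dentate gyrus. Rtp4 reached an adjusted p of 0.0467 from edgeR with a log2 fold change of 0.44, under the fold threshold. Irf7 had a log2 fold change of 0.61 (edgeR adjusted p = 0.0544), Usp18 of 0.73 (edgeR adjusted p = 0.0561) and Ifit3 of 0.45 (edgeR adjusted p = 0.0893). These values lay near the threshold: the number of the 9 genes called ran from 3 to 6 when single mice were left out. Irf7 passed without replicate 2 of the Fmn2-/- mice, replicates 3, 4 or 5 labelled FMN2-/-_APP, or replicates 5 or 6 labelled FMN2 +/+ APP (0.65 to 0.77). Usp18 passed without the first 4 of these mice or without replicates 2, 4 or 5 labelled FMN2 +/+ APP (0.76 to 0.82), and Rtp4 without replicate 5 of the Fmn2+/+ mice or replicate 1 of the Fmn2-/- mice (0.51 each). DESeq2 called Irf7 on all mice (0.60, adjusted p = 0.0497), as did edgeR with only the lane 7 run of the mice with 2 runs (0.64, adjusted p = 0.0475). Usp18 also passed without the 3 libraries rich in choroid plexus transcripts (0.86, edgeR adjusted p = 0.0376). Oasl2 alone had no higher mean in the cross, at 2.94 CPM against 3.13 CPM, with a log2 fold change of -0.09 and a 95% interval from -0.52 to 0.34 (edgeR adjusted p = 0.748).

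Each cross group was also set against each 3-month group. These 4 contrasts share samples in pairs. Of all genes, 16.7% and 10.8% were called for mice labelled FMN2 +/+ APP against Fmn2+/+ and Fmn2-/- mice, and 17.8% and 11.7% for mice labelled FMN2-/-_APP. Ifi27l2a was called in all 4, with log2 fold changes of 1.81 to 2.91. Bst2 was called in 3 of 4, and missed the threshold between mice labelled FMN2-/-_APP and Fmn2-/- mice (0.72, edgeR adjusted p = 0.0824). Isg15 was called against the Fmn2+/+ mice, at 1.24 for mice labelled FMN2-/-_APP (edgeR adjusted p = 0.00436) and at 1.04 for mice labelled FMN2 +/+ APP (edgeR adjusted p = 0.0121). Against the Fmn2-/- mice Isg15 did not pass, at 0.48 (edgeR adjusted p = 0.259) and 0.29 (edgeR adjusted p = 0.511). The other 6 genes passed in none of the 4 contrasts.

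The difference between the 4-month and the dentate gyrus contrasts was tested in 1 fit over 38 mice, in which 11.1% of 18276 genes were called (5.30% with a positive difference). Of the 9 genes, Oasl2 was called, with a difference of 1.62 on the log2 scale (standard error 0.36, edgeR adjusted p = 0.00112). Oasl2 rose 2.90-fold at 4 months, while in the dentate gyrus it lay between 1.14 and 6.06 CPM (median 2.75) in mice labelled FMN2-/-_APP and between 1.93 and 5.89 CPM (median 2.72) in mice labelled FMN2 +/+ APP, beside 2.49 to 4.42 CPM in the mice without the transgene. Rtp4 differed by 0.81 (edgeR adjusted p = 0.0528) and Ifit3 by 0.85 (edgeR adjusted p = 0.0798). Without replicate 7 labelled FMN2-/-_APP both passed, at 0.94 for Rtp4 (edgeR adjusted p = 0.0115) and at 1.05 for Ifit3 (edgeR adjusted p = 0.00757). Both also passed without the 3 cross mice of low Thy1, at 0.93 and 1.02. Rtp4 passed, at 0.84 to 0.92, when 1 of 8 other mice was left out: replicate 1 of the Fmn2+/+ mice, replicate 6 of the Fmn2-/- mice, replicate 6 labelled FMN2-/-_APP, replicates 1 and 3 labelled FMN2 +/+ APP, and replicates 2, 4 and 5 of the 4-month APP mice. The other 6 genes had differences of 0.05 to 0.79 with adjusted p from 0.247 to 0.947 in edgeR. For Isg15 the 95% interval of the difference ran from -0.76 to 0.85 and for Bst2 from -0.52 to 0.95. Titled tissue, age, lane and experiment all differ between these contrasts and cannot be told apart.

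Within the cross, the comparison of mice labelled FMN2-/-_APP with those labelled FMN2 +/+ APP asked whether Fmn2 alters the response to amyloid. None of the 9 genes passed, beside 0.774% of 16656 genes called by edgeR. None of the 9 had an unadjusted edgeR p under 0.05, while 2772 of the 16656 genes did. DESeq2 also called none of the 9. The log2 fold changes ran from -0.60 for Ifi27l2a (95% interval -1.53 to 0.33) to 0.30 for Irf7 (95% interval -0.41 to 0.997). For none of the 9 genes did the 95% interval reach, in either direction, the log2 fold change of that gene between 4-month APP and wild-type mice. Those libraries differ in titled tissue, age and experiment. The change between the cross and 3-month mice without the transgene was smaller for each gene. It lay within the interval for Ifit1 (0.75, interval -0.54 to 0.89), Ifit3, Irf7, Usp18, Rtp4 and Oasl2, though not for Ifi27l2a, Bst2 and Isg15. A difference of that size between the labels is thus not excluded for the former genes.

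The mice of the cross differed widely within each label. Averaged over the 9 genes, log2 CPM ran from -0.09 to 1.88 in mice labelled FMN2-/-_APP and from 0.35 to 1.56 in mice labelled FMN2 +/+ APP, beside -0.08 to 0.33 in Fmn2+/+ mice of 3 months. Replicate 7 labelled FMN2-/-_APP was highest for 7 of 9 genes in its group, with Ifit3 at 15.6 CPM where the other 6 mice lay between 3.43 and 7.41 CPM. In this mouse Cst7 was at 0.11 CPM and Thy1 at 842 CPM, within the range of mice without the transgene. Replicate 6 of the same label had an average of 1.57, Cst7 at 0.38 CPM and Thy1 at 933 CPM. Replicate 8 labelled FMN2 +/+ APP had an average of 1.56, with Cst7 at 12.4 CPM and Thy1 at 1476 CPM. High levels of the interferon response genes thus occurred in cross mice at both ends of the Cst7 range. The microglia sum in the cross was 375 to 579 CPM, against 314 to 418 CPM in 3-month mice without the transgene, with 6 of 11 markers called higher. The homeostatic microglia marker P2ry12 was lower in the cross (log2 fold change -0.49, edgeR adjusted p = 0.000137). Other cell types went both ways. All 6 astrocyte markers, 7 of 8 granule cell markers and 7 of 7 choroid plexus markers had positive log2 fold changes, with 1, 1 and 0 called higher. Of 8 endothelial markers 7 were negative and 1 was called lower. Markers of neurons and oligodendrocytes were lower too. The sum of 6 neuron markers was 4728 to 6044 CPM in the cross and 7338 to 10200 CPM in mice without the transgene (3 of 6 called lower, median -0.63). For 6 oligodendrocyte markers it was 1208 to 2897 CPM against 1947 to 4120 CPM (4 of 6 called lower, median -0.66). The part of these differences in the result was not tested.

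**Figure D3:**
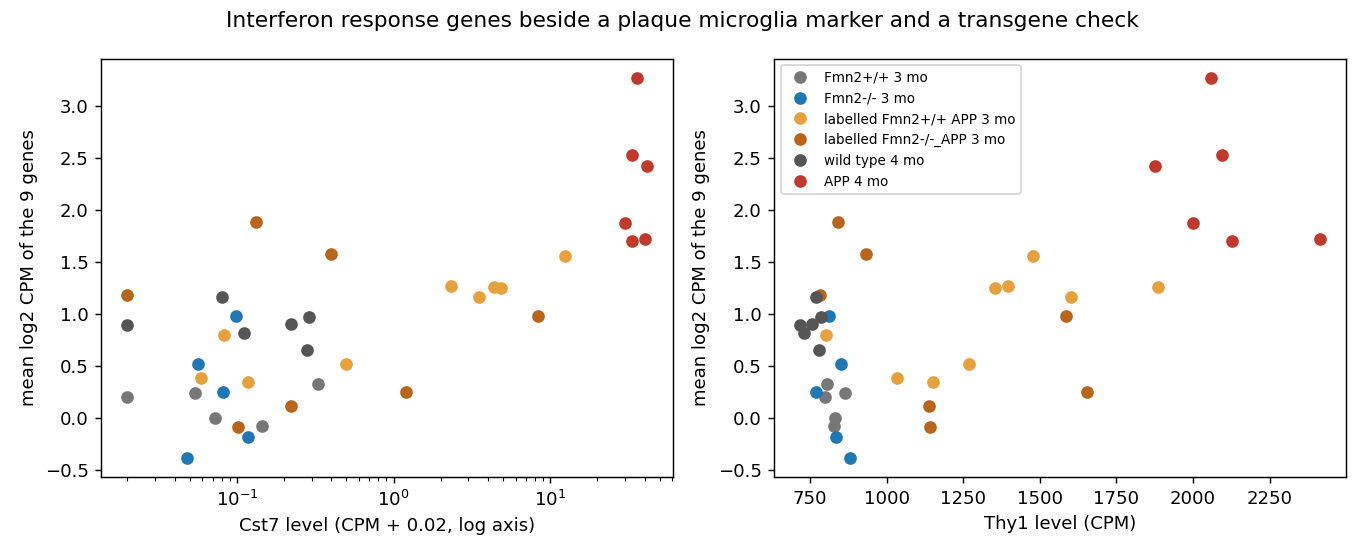
Mean log2 CPM of the 9 genes in each of the 38 mice of 3 and 4 months (vertical axes) against Cst7 (left, CPM plus 0.02, log axis) and Thy1 (right, CPM), coloured by group. The 4-month APP mice lie apart at high Cst7, while cross replicate 7 labelled FMN2-/-_APP reaches 1.88 at a Cst7 of 0.11 CPM.

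At 3 months, no interferon response gene passed between Fmn2-/- and Fmn2+/+ mice. Ifi27l2a was too low to be tested, 0 of 8 tested genes passed with edgeR, and 5 of all 16630 genes did (0.0301%). An unadjusted edgeR p under 0.05 was reached by 2 of the 8, Bst2 and Isg15, and by 1750 of all 16630 genes. DESeq2 called none of the 8, giving no adjusted p for Bst2 and Isg15. Bst2, at the levels given above, was higher in all 5 Fmn2-/- mice than in any Fmn2+/+ mouse, as were 2.13% of all genes tested. Its log2 fold change was 0.82 (standard error 0.24, edgeR p = 0.00475, adjusted p = 0.278). The highest Bst2 value, 2.75 CPM, came from replicate 4, the library rich in choroid plexus transcripts, and without it the change was 0.63 (edgeR adjusted p = 0.398). All Fmn2+/+ libraries were on lane 5 and 4 of 5 Fmn2-/- libraries on lane 6. With lane in the model the change of Bst2 was 0.29. This estimate rests on the single Fmn2-/- mouse on lane 5, so it does not tell lane and genotype apart. Isg15 had a log2 fold change of 0.75 (standard error 0.33, edgeR adjusted p = 0.461) and fell to 0.36 without replicate 2 of the Fmn2-/- mice (edgeR adjusted p = 0.613). That mouse had the highest level of 7 of the 9 genes in its group.

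At 8 months, 0 of 7 tested genes passed with edgeR or DESeq2, beside 1.13% of 14665 genes called by edgeR. None of the 7 had an unadjusted edgeR p under 0.05, while 3419 of the 14665 genes did. Ifi27l2a and Usp18 were not tested. The log2 fold changes ran from -0.14 for Irf7 to 0.42 for Ifit1. Ifit1 was at 1.56, 1.52 and 1.27 CPM in Fmn2+/+ mice and at 1.07, 2.29, 2.90, 2.30 and 1.23 CPM in Fmn2-/- mice, with 3 of 5 above every control (edgeR adjusted p = 0.446). Bst2 was at 2.14, 0.909 and 2.53 CPM in Fmn2+/+ mice and at 1.92, 2.29, 1.60, 3.07 and 0.949 CPM in Fmn2-/- mice, and these ranges overlapped (log2 fold change 0.01, edgeR adjusted p = 0.989). Isg15 lay between 0.895 and 0.920 CPM in the 3 Fmn2+/+ mice and between 0.682 and 1.70 CPM in Fmn2-/- mice. The Fmn2+/+ values rest on 38, 6 and 8 counts, in libraries of 6818809 to 43921030 counts. Their closeness is therefore not read as low variation.

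Age was compared within each genotype in 1 fit over 18 mice, in which libraries of 3 and 8 months were also largely on different lanes. From 3 to 8 months 0 of 8 tested genes passed in Fmn2+/+ mice, beside 9.21% of 17046 genes, and 0 of 8 in Fmn2-/- mice, beside 6.44%. In Fmn2+/+ mice 1 of the 8 had an unadjusted edgeR p under 0.05, as had 4653 of all 17046 genes. In Fmn2-/- mice 0 of the 8 had, beside 3852 of all 17046 genes. DESeq2 called none of the 8 in either genotype. The largest change was that of Bst2 in Fmn2+/+ mice, 0.92 (standard error 0.34, edgeR adjusted p = 0.0825). Of the 3 mice of 8 months, replicates 1 and 3 lay above all 3-month Fmn2+/+ mice, and without replicate 2, at 0.909 CPM, Bst2 passed (1.15, edgeR adjusted p = 0.0253). The age change of Bst2 in Fmn2-/- mice was 0.12 (edgeR adjusted p = 0.871). The interaction of age and genotype passed for 0 of 8 genes with edgeR and DESeq2, beside 3.73% of all genes, with an estimate of -0.80 for Bst2 (95% interval -1.73 to 0.12, edgeR adjusted p = 0.281).

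Within groups the 9 genes moved together from mouse to mouse. Over deviations from the group means in all 46 mice, Pearson correlations of the 36 pairs ran from 0.29 to 0.79, with a median of 0.58. In the 22 mice labelled APP all 36 were positive (median 0.74), and in the 24 mice without the transgene 31 of 36 were (median 0.32). Within a mouse the 9 genes come from 1 library and share its depth, and the correlations are given without a test. The heat map of deviations shows single mice in which most genes were high at once, replicate 1 of the 4-month APP mice and replicate 7 labelled FMN2-/-_APP among them. Of 14445 other genes with a mean log2 CPM over 0, those whose deviations were most like the average of the 9 were Gbp3 (r = 0.83), Gbp2 (r = 0.80), Irgm1 (r = 0.77), Parp14 (r = 0.77) and Trim30a (r = 0.76). Gbp2 and Gbp3 are guanylate-binding proteins and Irgm1 an immunity-related GTPase. All 5 were on the lists of interferon-induced genes used here.

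**Figure D4:**
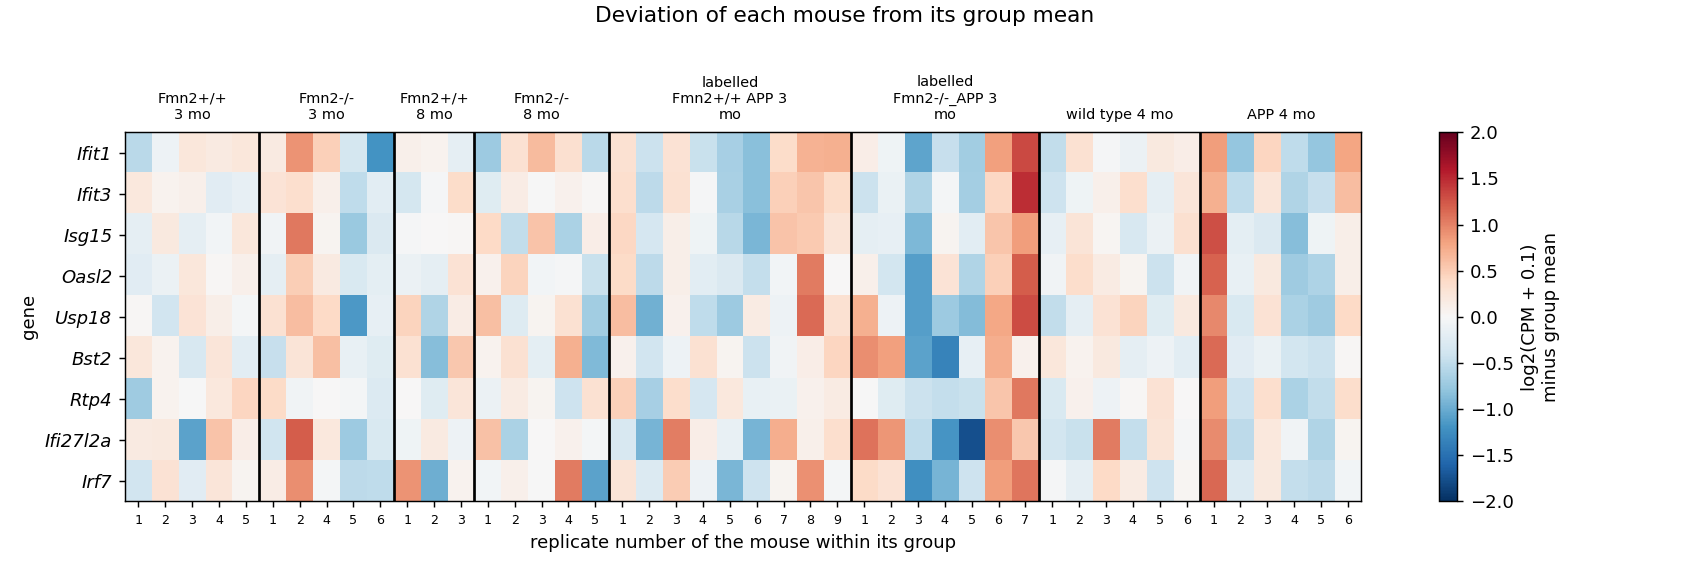
Deviation of log2(CPM + 0.1) from the group mean for each gene (rows) in each of the 46 mice (columns, by group and replicate number), with the colour scale at the right. Columns of a single colour are mice in which the genes were high or low together, such as replicate 1 of the 4-month APP mice, highest for 9 of 9 genes.

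The rest of the pathway was described by lists. Type I interferons themselves were at the limit of detection: 18 ligand genes had 0 to 5 counts each over all 46 mice, Ifnb1 1 count in all, and none could be tested. Counts this low do not show that the ligands were absent. Of the receptor and signal chain, Ptpn6, a phosphatase, was called higher in 4-month APP mice, at 1.31 (edgeR adjusted p = 1.96e-07). Of the list of sensors upstream of interferon, which also holds transcription factors, 7 of 18 tested genes were called higher (median 0.34). Of these 7, Irf8 at 1.45 and Irf5 at 0.96 are transcription factors. The others were the RNA receptor Tlr7 at 0.73, Dhx58 at 0.70, Ddx58 at 0.69, Tmem173 at 0.63 and Aim2 at 0.56. All 7 were named after their values were seen. Irf8 is a lineage factor of microglia.

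Other genes induced by type I interferon moved with the 9. Of 77 listed, 68 were tested at 4 months, 37 were called higher and 0 lower, and 65 had a positive log2 fold change (median 0.71). The largest called changes were in Ifi204 (3.01, edgeR adjusted p = 0.000106), a DNA-binding protein of the p200 family, in the chemokine Cxcl10 (2.68, edgeR adjusted p = 0.00567) and in Ifi207 (2.46, edgeR adjusted p = 0.00144). Lgals3bp, a secreted glycoprotein, rose from 12.2 ± 0.545 to 49.5 ± 13.7 CPM (SD, n = 6 each), a log2 fold change of 2.04 (edgeR adjusted p = 2.44e-08). Mx1, a dynamin-like antiviral GTPase, rose by 1.70 on the log2 scale (edgeR adjusted p = 0.0138). Of 17 genes typical of type II interferon, 12 were tested and 5 called higher (median 0.48).

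In the dentate gyrus of 3 months, 17 of 68 tested genes of the same list were called higher in the cross (beside 9.25% of all genes) and 6 lower, a share near the 7.26% of all genes. The list median was 0.20. Trim34a rose by 2.02 (edgeR adjusted p = 7.92e-05), and Ifi44l (1.40) and Oas1a (1.15) rose as well. Ifi203 fell (log2 fold change -1.57, edgeR adjusted p = 4.50e-08) and Ifi204 from 1.16 to 0.429 CPM (-1.49, edgeR adjusted p = 5.22e-05). Ifi204 thus changed in opposite directions in the 2 comparisons, a difference of 4.48 (standard error 0.50, edgeR adjusted p = 6.85e-08). Differences were also called for Phf11b (2.20), Ifi203 (2.07), Ifi207 (1.84) and Xaf1 (1.83). The p200 family genes lie on chromosome 1 near Fmn2 (mm10): Ifi207 from 173723427 to 173741747, Ifi204 from 173747293 to 173766943, Ifi203 from 173920407 to 173942672 and Fmn2 from 174501825 to 174822729. Of the signal chain 1 of 10 genes was called higher, Irf9 (0.54, edgeR adjusted p = 0.0007). Of the sensor list 3 of 18 were, namely Tlr7 (0.61), Ikbke (0.56) and Irf8 (0.52). With 9.25% of all genes called higher and 16.5% called in all, nothing is read from these small counts about either list. Of 13 tested type II genes 5 were called higher and 1 lower.

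With age, 3 of 58 tested interferon-induced genes passed in each genotype, beside 9.21% of all genes in Fmn2+/+ and 6.44% in Fmn2-/- mice, and none of the signal chain, sensor or type II lists. These shares are no higher than the background, and the genes are named only to account for the counts. In Fmn2+/+ mice Ifi27 rose by 0.74 (edgeR adjusted p = 0.00344), while Eif2ak2 (-0.63) and Znfx1 (-0.29) fell. In Fmn2-/- mice Ifi27 (0.44), Zc3hav1 (0.40) and Rnf213 (0.30) rose. In the Fmn2 comparisons at 3 and 8 months and within the cross, none of the genes on the signal chain, sensor, interferon-induced and type II lists was called.

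**Figure D5:**
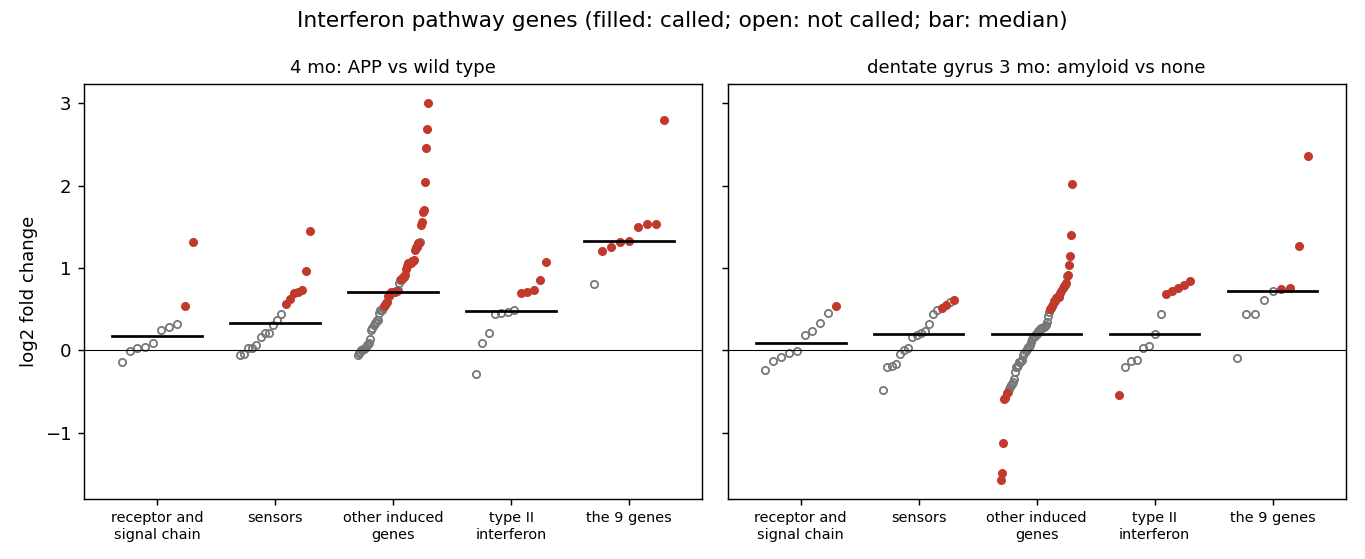
Log2 fold change (vertical axis) of each tested gene on the lists of signal chain, sensors, other interferon-induced and type II genes and of the 9 genes (horizontal axis), for the 4-month and the dentate gyrus comparison. Filled points were called, open ones were not, and bars are medians: 1.32 for the 9 genes at 4 months and 0.73 in the dentate gyrus.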

How the data were processed

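RNA was extracted with Trizol from whole tissue and libraries were made with the TruSeq RNA v2 kit, which does not mark strand. The authors aligned reads with STAR and counted them per gene with HTSeq, as described for the study, and the labels name mm10. The deposited values are raw counts per gene, 1 file per library. The 2 runs of 1 mouse, present for 2 cross mice, were summed. No other column of samples was present. Of 48709 gene identifiers, 48349 had a symbol in the GENCODE annotation.

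Counts were tested with edgeR 4.0.16 (R 4.3.3, limma 3.58.1): TMM normalisation, filterByExpr, quasi-likelihood fits on group means, two-sided, with Benjamini-Hochberg adjustment over all genes tested. The threshold was an adjusted p of 0.05 with a log2 fold change beyond 0.25 in either direction (Fmn2 and age) or 0.5 (amyloid and the cross). DESeq2 1.42.0, relative log expression factors, no filter, offsets for length and GC content, lane, replicate block and leaving out mice were alternatives. Levels are CPM on the TMM scale and FPKM on merged exon length. Replicates are taken as separate mice from the labels.

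The members and lists were chosen with earlier results of these data known. All 9 genes were named in every comparison, with up to 5 called list genes of the largest fold change and the 5 genes most like the members. The 4-month count of the signal chain list is not reported here. Genes of lists with 5 or fewer calls were named after their values were seen. The difference between the amyloid contrasts, the exclusions by Thy1 and choroid plexus transcripts and lane in the cross were added after seeing the data. The edgeR step was tested on simulated data, with changes placed only in genes of a mean simulated count over 20. It was run with 2 random seeds. Of genes changed by 1 on the log2 scale it recovered 96% and 99% for the 4-month comparison (16604 and 16600 genes), 89% and 95% for Fmn2 at 3 months (16447 and 16479 genes), 92% and 88% at 8 months (14524 and 14528 genes) and 93% and 94% for the dentate gyrus (17395 and 17419 genes). False calls numbered 0 of 196 and 6 of 205, 14 of 203 and 14 of 209, 20 of 207 and 12 of 200, and 5 of 197 in both, so in the Fmn2 comparisons they took a larger share than the adjusted threshold of 0.05 allows for. These recovered shares do not give the power for the 9 genes. In 8-month Fmn2-/- mice Isg15 rested on 7 to 17 counts. The median SD of log2 CPM there was 0.54 for the 9 genes, beside 0.16 over all genes kept. The 95% intervals use the t distribution with the degrees of freedom of the edgeR test.

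Same-numbered mice did not deviate together in all pairs of any comparison (correlations from -0.141 to 0.264), so the replicate numbers were not used as pairs.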

Additional observations from a re-analysis of the deposited data

Results flagged for a closer look

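Within groups of 4 to 10 mice, the highest or lowest mouse was checked with Dixon's ratio in 63 combinations of gene and group. It stood apart in 7, each time as the highest mouse. For independent, normally distributed values chance gives about 1 in 20. These are low counts of genes that moved together within mice, so the shares are not compared. In the 4-month APP mice, replicate 1 stood apart for Irf7 (12.1 CPM), Oasl2 (22.0 CPM), Bst2 (14.5 CPM) and Isg15 (7.96 CPM). In the cross, Ifit3 stood apart at 15.6 CPM in replicate 7 labelled FMN2-/-_APP and Oasl2 at 5.89 CPM in replicate 8 labelled FMN2 +/+ APP. In the 4-month wild-type mice, Ifi27l2a stood apart in replicate 3, at 0.851 CPM. The change of Oasl2 with amyloid differed between the 4-month comparison and the dentate gyrus of 3 months, by 1.62 on the log2 scale in the test of the difference.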

How the results depend on the processing

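The number of the 9 genes called was 8 at 4 months under every alternative run, and 0 in both Fmn2 comparisons, the cross, the interaction and age in Fmn2-/- mice. Leaving out mice gave 0 to 1 for age in Fmn2+/+ mice, 3 to 6 for amyloid in the dentate gyrus and 1 to 3 for the difference of the amyloid contrasts, which was 3 without the 3 cross mice of low Thy1. Replicate numbers are shared by label alone, and with a replicate block 8 genes were called at 4 months and 0 in the Fmn2 comparisons, the cross and by age. No value changed sign past the threshold. Counts over all genes moved more. Those of the main test and their range over other settings and left-out mice were 5 (2 to 96) at 3 months, 166 (3 to 3087) at 8 months, 129 (56 to 359) in the cross, 635 (8 to 2791) for the interaction, 1570 (225 to 2994) for age in Fmn2+/+ and 1097 in Fmn2-/- mice (746 to 1239 with mice left out). With the replicate block they were 2 and 4 at 3 and 8 months, 111 in the cross, 383 at 4 months, 225 for age in Fmn2+/+ mice and 0.653% of genes tested for age in Fmn2-/- mice. The cause of these shifts was not tested. Low counts kept Ifi27l2a out of the Fmn2 tests at 3 and 8 months and Usp18 out of that at 8 months.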
